A study of Mus musculus with 8 samples.

Results

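The mitochondrial genome of the mouse encodes 37 genes, and all 37 have an entry with MT as its chromosome among the 50902 genes of the RPKM table analysed here. They were taken by that chromosome label alone and divided by class into 13 protein-coding genes, 2 rRNA genes and 22 tRNA genes. Only 14 of the 37 genes were above 0 in any library, and 11 were above 0 in all 8 libraries: 7 protein-coding genes, both rRNA genes and 2 tRNA genes. In the comparison of the lines, mt-Nd1 rose by 0.44 and mt-Cytb by 0.16 on the log2 scale, and mt-Co1 fell by 0.23. The reads counted on the protein-coding genes, nearly all from the 7 above 0 in all libraries, made up similar shares of both lines' libraries.

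Mitochondrial DNA is copied and expressed inside the organelle by proteins that the nucleus encodes. Both of its strands are transcribed into long precursors, from which the tRNAs that lie between most of the other genes are cut out, releasing the mRNAs and rRNAs. Most of the mRNAs receive short poly(A) tails. The mRNAs encode core subunits of respiratory chain complexes I, III and IV and of the ATP synthase. The rRNAs build the mitochondrial ribosome, and the tRNAs decode the messages.

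The libraries come from E14 mouse embryonic stem cells (ESCs), a line derived from the early embryo, grown in N2B27 medium with LIF and 2i, the pair of inhibitors that keeps them in the ground state. BAZ2A is a chromatin-binding protein whose TAM domain binds RNA. ESC + F/H-BAZ2Ar WT carried a Flag- and HA-tagged BAZ2A transgene that the siRNA cannot target, placed in the genome by PiggyBac transposase, and ESC + F/H-BAZ2Ar ΔTAM carried the same kind of transgene without the TAM domain. Both lines were transfected with siRNA against Baz2a and collected 3 days later, so that loss of the endogenous transcript is common to both groups, and each line came from clones isolated on their own after PiggyBac insertion, so that the effect of the deletion and other differences between the 2 lines cannot be told apart. Each line gave 4 libraries from poly(A)-enriched RNA, and since the labels do not say whether the 4 came from separate cultures, the p-values below measure only the spread between these libraries.

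Library totals were inferred from the step between RPKM values and were not seen directly. Reads recovered on genes, 6560881 to 8662855 per library, were 14.8% to 15.0% of these inferred totals. The mitochondrial genome took 154081 to 216217 of the reads on genes, or 2.30% to 2.58%. All 9 ESC markers checked were at 0.1 RPKM or more, with a summed level of 380 to 389 RPKM in ESC + F/H-BAZ2Ar WT and 303 to 330 RPKM in ESC + F/H-BAZ2Ar ΔTAM. Of the markers of other types, 3 of 6 for trophoblast reached 0.1 RPKM (summed 1.34 to 1.37 and 1.37 to 1.68 RPKM), as did 0 of 6 for primitive endoderm (summed at most 0.0596 RPKM) and 0 of 6 for fibroblasts, 2 of which were at 0. The Baz2a level, to which the transgene contributes, was 9.95, 10.3, 10.5 and 11.2 RPKM in ESC + F/H-BAZ2Ar WT and 17.0, 18.6, 18.5 and 18.9 RPKM in ESC + F/H-BAZ2Ar ΔTAM, a log2 fold change of 0.79 (limma, Benjamini-Hochberg adjusted p = 3.4e-05). The part of the marker and Baz2a levels in the mitochondrial values was not tested.

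The 6 protein-coding genes mt-Co2 (MT:7013-7696), mt-Atp8 (MT:7766-7969), mt-Atp6 (MT:7927-8607), mt-Co3 (MT:8607-9390), mt-Nd3 (MT:9459-9806) and mt-Nd4l (MT:9877-10173), which lie next to each other, were listed at 0 in every library, with the exception of 1 read of mt-Co2 in replicate 3 of ESC + F/H-BAZ2Ar ΔTAM. They encode 2 subunits of cytochrome c oxidase (complex IV), both mitochondrial subunits of the ATP synthase and 2 subunits of NADH dehydrogenase (complex I), proteins that every respiring cell needs. At these depths a count of 0 allows at most 3 reads, which for the 5 genes without any read corresponds to 0.0660 to 0.337 RPKM per library and covers counting error only.

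Of these genes, all except mt-Atp8 have near-identical annotated copies in the nuclear genome. In mm10 a block on chromosome 1 (1:24611535-24616197, minus strand, 4663 bases) holds 7 annotated unprocessed pseudogenes that follow the order of the mitochondrial interval MT:6381-11042 (4662 bases). Gm28661 matches bases 1 to 681 of mt-Co2 without a mismatch, Gm10925 bases 1 to 678 of mt-Atp6, Gm28437 bases 1 to 783 of mt-Co3 and Gm10222 bases 1 to 294 of mt-Nd4l, also each with 0 mismatches. Gm28438 differs from bases 1 to 345 of mt-Nd3 only by T3C, counted from the first base of the mitochondrial gene, whose base is given first. Gm28439 matches the first 876 of the 1378 bases of mt-Nd4 with 0 mismatches, and Gm29216 matches bases 1054 to 1545 of mt-Co1 with 6 mismatches, T1056A, C1057T, A1059G, A1060G, C1062A and A1066T, all at the start of the copy.

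The sequences at 3 of these places show how little separates the organelle's gene from its copy. They are 60 bases each, 5′ to 3′ in the sense of the mitochondrial gene, from the GENCODE vM21 transcripts (GRCm38), with the bases that differ in capitals: mt-Co1 at MT:6381-6440 on the plus strand against Gm29216 at 1:24616138-24616197 on the minus strand, mt-Nd3 at MT:9459-9518 against Gm28438 at 1:24613060-24613119, and the start of mt-Nd4 at MT:10167-10226 against Gm28439 at 1:24612351-24612410, where none differs.
mt-Co1 stretch: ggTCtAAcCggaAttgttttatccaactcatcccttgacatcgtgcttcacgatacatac
Gm29216 stretch: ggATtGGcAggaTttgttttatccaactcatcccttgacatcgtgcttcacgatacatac
mt-Nd3 stretch: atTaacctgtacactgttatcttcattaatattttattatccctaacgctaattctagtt
Gm28438 stretch: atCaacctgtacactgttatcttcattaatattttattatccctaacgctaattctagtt
mt-Nd4 stretch: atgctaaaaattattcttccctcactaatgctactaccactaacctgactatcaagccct
Gm28439 stretch: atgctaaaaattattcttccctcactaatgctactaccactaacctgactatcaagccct

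Reads were 100 bases long per the labels, and a read of that length can be placed on the organelle alone only where its sequence is not also found in the nuclear genome. Of all windows of 100 bases, 99.5% of those in mt-Co2 and mt-Atp6, 99.9% in mt-Co3, 97.6% in mt-Nd3 and 98.5% in mt-Nd4l were also present in a nuclear transcript. The share was 60.8% in mt-Nd4, 30.8% in mt-Co1 and 3.19% in mt-Nd2, and 0% in mt-Nd1, mt-Nd5, mt-Nd6, mt-Cytb and both rRNAs. All 5 protein-coding genes that lie wholly outside the interval were measured, with 3766 to 35978 reads per library, and so were mt-Co1 and mt-Nd4, which straddle its ends. The 7 copies themselves together held only 24 to 86 reads per library, against 150858 to 211028 on the protein-coding members. How reads that map to several places were counted is not stated for these values, and its part in the zeros was not tested.

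mt-Atp8, a small subunit of the membrane part of the ATP synthase, is the exception by sequence. None of its windows of 100 bases was found in a nuclear transcript, but it lies where the annotated copies leave 233 bases uncovered on chromosome 1 (1:24614652-24614884), which is also the number of bases that separate the last matched base of mt-Co2 from the start of mt-Atp6. Its sequence is shown because the zero cannot be read from annotated copies; the capitals mark the 43 bases that it shares with the start of mt-Atp6, in another reading frame (MT:7766-7969, plus strand).
mt-Atp8: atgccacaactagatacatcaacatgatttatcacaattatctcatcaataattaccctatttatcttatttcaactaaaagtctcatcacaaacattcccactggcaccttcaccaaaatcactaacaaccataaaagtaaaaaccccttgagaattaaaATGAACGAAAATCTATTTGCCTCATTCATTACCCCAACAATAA
Whether the uncovered bases on chromosome 1 hold mt-Atp8 was not examined, as no nuclear genome sequence was used here.

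**Figure D1:**
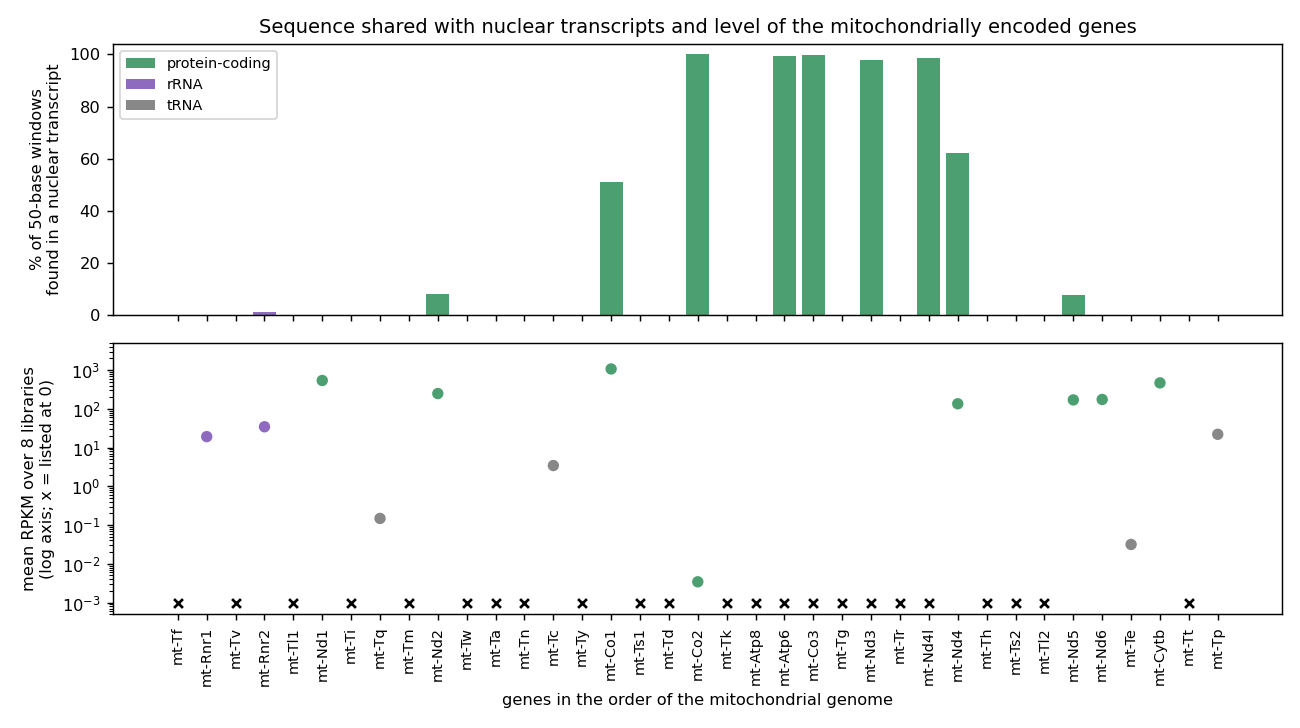
Upper panel, the percentage of windows of 50 bases of each mitochondrially encoded gene that are also found in a nuclear transcript; lower panel, mean RPKM over the 8 libraries on a log axis, with a cross for genes listed at 0, both in genome order and coloured by class. The 5 genes with nearly all windows shared are at or near 0, mt-Atp8, which has none shared, is also at 0, and so are all tRNAs except 4.

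The 7 mRNAs that were measured spanned a wide range of levels, given here as RPKM, per kilobase of gene. In ESC + F/H-BAZ2Ar WT the order was mt-Co1 (1162 ± 60.3, SD, n = 4), mt-Nd1 (460 ± 10.1), mt-Cytb (442 ± 19.1), mt-Nd2 (230 ± 13.1), mt-Nd6 (184 ± 15.8), mt-Nd5 (179 ± 14.0) and mt-Nd4 (139 ± 8.70). Ranges of neighbours overlapped for mt-Nd1 and mt-Cytb and for mt-Nd6 and mt-Nd5, and did not for the others. In ESC + F/H-BAZ2Ar ΔTAM the order of the means was the same, and the ranges of mt-Nd1 and mt-Cytb did not overlap. Within each library of either line mt-Nd1 was above mt-Cytb. mt-Co1, mt-Nd1 and mt-Cytb were in that order the genes with ranks 1, 2 and 3 of the whole table in each of the 8 libraries, where nuclear genes are scaled by a length that includes introns and are therefore not comparable in level. Levels of mt-Co1 and mt-Nd4 depend on how shared bases are counted: per window that is not found in a nuclear transcript, a calculation added after seeing the data, mt-Co1 would stand at 1680 and mt-Nd4 at 353 RPKM in ESC + F/H-BAZ2Ar WT, which would place mt-Nd4 above mt-Nd2 (237 RPKM).

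**Figure D2:**
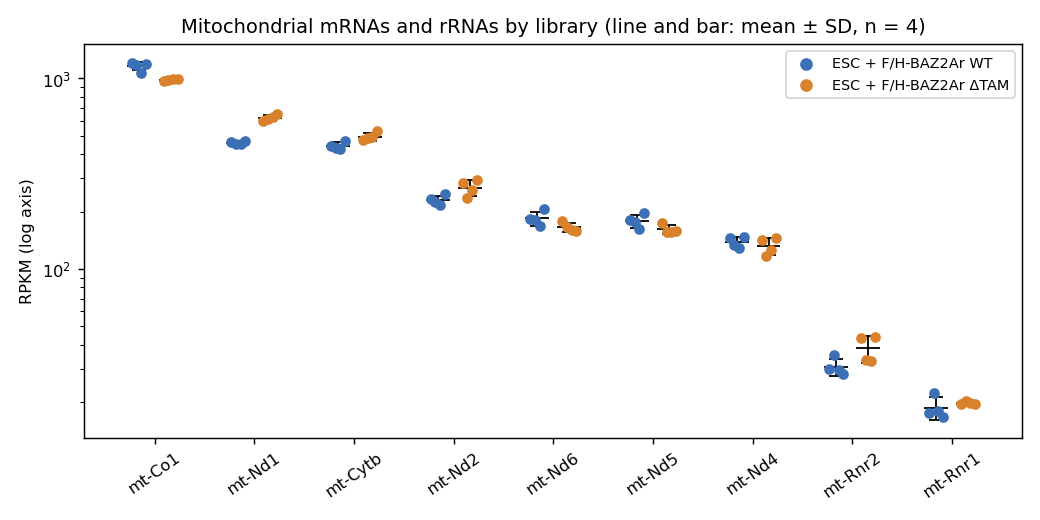
RPKM on a log axis of the 7 measured mitochondrial mRNAs and both rRNAs, with a point for each library and lines and bars for the mean ± SD (n = 4 per line). The 4 ΔTAM libraries lie above the WT libraries for mt-Nd1 and mt-Cytb and below them for mt-Co1, and overlap with them for the other 6 genes.

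The comparison of ESC + F/H-BAZ2Ar ΔTAM with ESC + F/H-BAZ2Ar WT asks which transcripts differ between the lines with and without the TAM domain. Of the 37 members, 12 had a mean of at least 0.1 RPKM and were tested with limma on log2(RPKM + 0.1), and 3 of these passed an adjusted p of 0.05: 2 were higher (mt-Nd1, mt-Cytb) and 1 was lower (mt-Co1). Of the 12, mt-Tq reached the minimum only through the ΔTAM libraries, with 0 or 1 read in each, and its value supports no comparison. These 3 of 12 stand beside 35.8% of all 9000 genes tested, of which 19.9% were higher and 15.9% lower. None of the members passed the study's fold threshold, a log2 fold change of 0.58 or more in size, together with p under 0.05, taken here as unadjusted, which 3.79% of all genes tested did. With limma voom on the recovered reads, 7 of 11 members passed beside 43.9% of all genes: mt-Nd1, mt-Nd2, mt-Cytb and mt-Rnr2 were higher and mt-Co1, mt-Nd5 and mt-Nd6 lower. The values of the 2 lines did not overlap for the same 3 of the 11 members that were above 0 in all libraries, against 37.2% of all genes tested. In bulk RNA a lower level in each cell and fewer cells with the transcript cannot be told apart.

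mt-Nd1 (MT:2751-3707), which encodes a membrane subunit of complex I and is the first mRNA gene downstream of the rRNA genes, had the largest log2 fold change of the 7 measured mRNAs. Its levels were 466, 451, 452 and 471 RPKM in replicates 1 to 4 of ESC + F/H-BAZ2Ar WT and 598, 613, 629 and 648 RPKM in those of ESC + F/H-BAZ2Ar ΔTAM. Every ΔTAM library was above every WT library, and the gap between the lines was larger than the range within either. The mean rose 1.35-fold, from 460 ± 10.1 to 622 ± 21.3 RPKM (SD, n = 4), a log2 fold change of 0.44 (SE 0.028, limma with Benjamini-Hochberg adjusted p = 5.2e-05). It passed the test whichever single library was left out, with log2 fold changes of 0.42 to 0.45.

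mt-Co1 (MT:5328-6872), the catalytic subunit of cytochrome c oxidase and the most abundant of the measured messages, moved the other way. ESC + F/H-BAZ2Ar WT had 1199, 1178, 1073 and 1198 RPKM and ESC + F/H-BAZ2Ar ΔTAM 965, 986, 999 and 995 RPKM. Replicate 3 of the WT line was well below the other WT libraries but still above all ΔTAM libraries, which lay close together. The mean fell from 1162 ± 60.3 to 986 ± 15.5 RPKM, a log2 fold change of -0.23 (SE 0.037, limma adjusted p = 0.0023), and the call held whichever single library was left out (-0.27 to -0.22).

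mt-Cytb (MT:14145-15288), the only mitochondrially encoded subunit of complex III, showed a smaller increase. Its levels were 441, 433, 426 and 469 RPKM in ESC + F/H-BAZ2Ar WT and 473, 487, 495 and 528 RPKM in ESC + F/H-BAZ2Ar ΔTAM. The lines did not overlap, but the highest WT and the lowest ΔTAM library were close to each other. The mean rose from 442 ± 19.1 to 496 ± 23.2 RPKM, a log2 fold change of 0.16 (SE 0.042, limma adjusted p = 0.0186). Without replicate 2 of ESC + F/H-BAZ2Ar WT the call was lost (limma adjusted p = 0.0506), and with no filter on low genes both mt-Cytb (limma adjusted p = 0.376) and mt-Co1 (0.494) lost theirs with unchanged fold changes.

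The other 4 mRNAs that were measured all encode complex I subunits, and none passed the test. mt-Nd2 (MT:3914-4951) stood nearest to it, with 233, 224, 216 and 247 RPKM in ESC + F/H-BAZ2Ar WT and 283, 235, 261 and 292 RPKM in ESC + F/H-BAZ2Ar ΔTAM. Replicate 2 of the ΔTAM line fell within the WT range, and the other 3 ΔTAM libraries were above it. The log2 fold change was 0.22 (SE 0.073, limma adjusted p = 0.0507), and it was called in 7 of the 11 other settings and in 2 of the 8 fits that left out a library.

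mt-Nd5 (MT:11742-13565) and mt-Nd6 (MT:13552-14070) overlap at their ends on opposite strands, and mt-Nd6 is the only protein-coding gene of the minus strand. mt-Nd5 had 181, 177, 162 and 196 RPKM in ESC + F/H-BAZ2Ar WT and 175, 157, 157 and 159 RPKM in ESC + F/H-BAZ2Ar ΔTAM (log2 fold change -0.14, 95% confidence interval -0.29 to 0.0020, limma adjusted p = 0.113). mt-Nd6 had 183, 181, 168 and 206 RPKM and 178, 166, 161 and 159 RPKM (-0.15, -0.30 to -0.00048, limma adjusted p = 0.108). When single libraries were left out, the log2 fold change was -0.19 to -0.098 for mt-Nd5, which passed without replicate 3 of the WT line (limma adjusted p = 0.036), and -0.19 to -0.095 for mt-Nd6. For both genes most ΔTAM libraries were below the WT range and 1 lay within it. The ratio of mt-Nd6 to mt-Nd5 was 1.0 to 1.06 in all 8 libraries, so both entries had nearly the same value per kilobase. The kit keeps strand, but the use of strand in the counting is not stated. Reads of mt-Nd6 and of RNA from the other strand may then not be told apart. The ratio therefore cannot show whether the genes themselves had equal levels.

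mt-Nd4 (MT:10167-11544) had 145, 134, 129 and 147 RPKM in ESC + F/H-BAZ2Ar WT and 142, 117, 125 and 145 RPKM in ESC + F/H-BAZ2Ar ΔTAM, so that 2 ΔTAM libraries lay below the WT range and 2 within it. Its log2 fold change was -0.069 (95% confidence interval -0.25 to 0.11, limma adjusted p = 0.526), and ranged from -0.11 without replicate 4 to -0.013 without replicate 2 of the ΔTAM line.

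**Figure D3:**
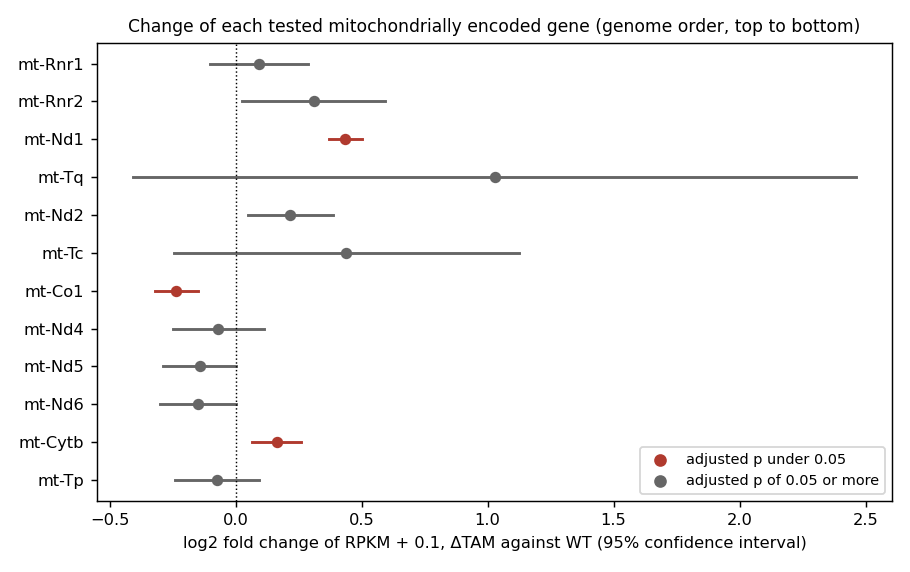
Log2 fold change of RPKM + 0.1 in ΔTAM against WT for the 12 members tested, in genome order, with 95% confidence intervals from limma. mt-Nd1 and mt-Cytb lie above 0 and mt-Co1 below it with adjusted p under 0.05, and mt-Tc, with 7 to 16 reads per library, and mt-Tq, with 0 or 1, have the widest intervals.

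The sum of the 7 measured mitochondrial messages differed less than its parts. The 6 protein-coding genes listed at or near 0 add almost nothing to it, so it is not the total of the mitochondrial mRNAs. Reads on the protein-coding members were 2.41% ± 0.120 of the reads on genes in ESC + F/H-BAZ2Ar WT and 2.36% ± 0.0563 in ESC + F/H-BAZ2Ar ΔTAM (SD, n = 4), a difference within the spread of the WT libraries. Within that sum, the share of mt-Co1 in the summed RPKM was 40.8% to 42.4% in the WT and 34.0% to 35.7% in the ΔTAM libraries, with means of 41.6% and 34.8%. The mean share of mt-Nd1 was 16.5% in ESC + F/H-BAZ2Ar WT and 22.0% in ESC + F/H-BAZ2Ar ΔTAM, and that of mt-Cytb 15.8% and 17.5%. mt-Nd2 had mean shares of 8.22% and 9.45%, mt-Nd6 of 6.58% and 5.86%, mt-Nd5 of 6.39% and 5.72%, and mt-Nd4 of 4.95% and 4.67%.

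**Figure D4:**
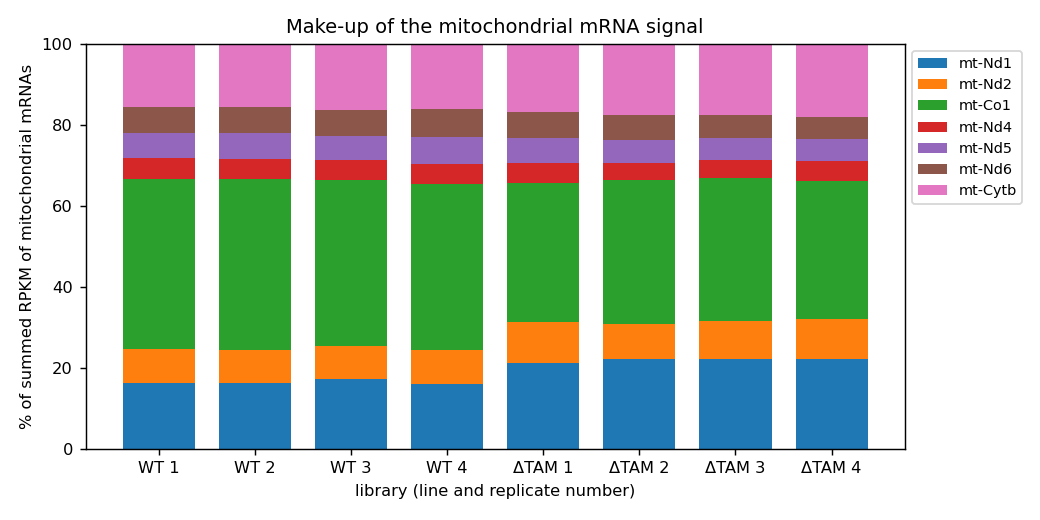
Percentage of the summed RPKM of the 7 measured mitochondrial mRNAs that each gene takes, with a bar for each of the 8 libraries. The mt-Co1 segment is 40.8% to 42.4% in the WT and 34.0% to 35.7% in the ΔTAM libraries, and the mt-Nd1 segment is larger in every ΔTAM library.

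Ratios between members of a library do not depend on how the libraries were scaled. The ratio of mt-Nd1 to mt-Co1 was 0.389, 0.383, 0.422 and 0.393 in ESC + F/H-BAZ2Ar WT and 0.620, 0.622, 0.629 and 0.651 in ESC + F/H-BAZ2Ar ΔTAM, with no overlap between the lines. The ratio of mt-Cytb to mt-Co1 rose from a mean of 0.381 ± 0.0154 to 0.502 ± 0.0186, and that of mt-Nd2 to mt-Nd1 was 0.500 ± 0.0188 and 0.431 ± 0.0393, both also without overlap. With each library scaled to its summed mitochondrial mRNAs, limma called 5 members. These were mt-Nd1 (log2 fold change 0.42), mt-Nd2 (0.20), mt-Cytb (0.14), mt-Co1 (-0.25) and mt-Nd5 (-0.16). Of these, mt-Nd2 and mt-Nd5 did not pass the test on the deposited scale. The sum is made of the members themselves, so a rise of any of them lowers the scaled values of the others. The share called over all genes under this scaling is not given here.

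The rRNAs were present at a small part of the mRNA levels, in libraries that were selected for poly(A) and from which the authors removed ribosomal RNA reads before mapping, so their level is not that of the ribosome. mt-Rnr1 (12S rRNA of the small subunit, MT:70-1024) had 17.5, 22.4, 17.9 and 16.8 RPKM in ESC + F/H-BAZ2Ar WT and 19.5, 20.2, 19.9 and 19.5 RPKM in ESC + F/H-BAZ2Ar ΔTAM. Replicate 2 of the WT line was above all the other libraries, whereas the ΔTAM libraries were nearly equal. The log2 fold change was 0.092 (SE 0.083, limma adjusted p = 0.429), and 0.18 without that WT replicate (limma adjusted p = 0.0057), against 0.045 without replicate 4 of the WT line (limma adjusted p = 0.72).

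mt-Rnr2 (16S rRNA of the large subunit, MT:1094-2675) had 29.9, 35.3, 29.6 and 28.1 RPKM in ESC + F/H-BAZ2Ar WT and 43.6, 33.2, 32.8 and 43.8 RPKM in ESC + F/H-BAZ2Ar ΔTAM. Replicates 1 and 4 of the ΔTAM line were high, and replicates 2 and 3 fell within the WT range. The log2 fold change was 0.31 (95% confidence interval 0.026 to 0.59, limma adjusted p = 0.0844). The ratio of mt-Rnr2 to mt-Rnr1 was 2.24 in both high libraries and 1.58 to 1.71 in the other 6. For mt-Nd2 and mt-Nd4, replicates 1 and 4 were the highest in both lines. In the WT line, however, mt-Rnr2 was highest in replicate 2. Summed over both rRNAs, reads were 0.0446% ± 0.0048 of the reads on genes in ESC + F/H-BAZ2Ar WT and 0.0533% ± 0.0066 in ESC + F/H-BAZ2Ar ΔTAM.

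Of the 22 tRNA genes, 18 were at 0 in every library, and the 22 together had 77 to 97 reads per library. A count of 0 allows at most 3 reads, 0.698 to 1.18 RPKM for these short genes, for counting error only. The 4 with a read, printed here 5′ to 3′ in the sense of the tRNA and from the same transcripts, were mt-Tp (proline, MT:15356-15422), mt-Tc (cysteine, MT:5192-5257), mt-Tq (glutamine, MT:3772-3842) and mt-Te (glutamate, MT:14071-14139). All 4 are on the minus strand, which holds 8 of the tRNA genes, and none of the 14 on the plus strand had a read. The capitals mark the 3 bases of mt-Tq that are also part of the neighbouring gene mt-Ti, which runs in the other direction.
mt-Tp: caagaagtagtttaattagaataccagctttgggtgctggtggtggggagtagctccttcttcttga
mt-Tc: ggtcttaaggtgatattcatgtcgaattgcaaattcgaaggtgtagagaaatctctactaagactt
mt-Tq: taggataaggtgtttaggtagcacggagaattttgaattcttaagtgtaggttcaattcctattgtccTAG
mt-Te: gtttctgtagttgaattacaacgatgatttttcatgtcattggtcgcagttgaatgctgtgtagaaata

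mt-Tp, the last annotated gene before the control region, held most of these reads, with 68, 75, 79 and 79 reads in ESC + F/H-BAZ2Ar WT and 63, 62, 84 and 75 in ESC + F/H-BAZ2Ar ΔTAM. The lines overlapped throughout (22.6 ± 1.64 and 21.5 ± 1.78 RPKM, log2 fold change -0.075, 95% confidence interval -0.24 to 0.091, limma adjusted p = 0.452, and -0.13 to -0.031 with single libraries left out). mt-Tc had 9, 10, 7 and 11 reads in the WT and 15, 16, 12 and 8 in the ΔTAM libraries, and in RPKM all ΔTAM libraries except replicate 4 were above the WT range. Its log2 fold change was 0.44 (SE 0.29, limma adjusted p = 0.286), 0.71 without that replicate (limma adjusted p = 0.0342) and 0.26 without replicate 2 of the ΔTAM line (limma adjusted p = 0.533). mt-Tq had 1 read in 4 libraries and 0 in the others, and mt-Te 1 read in 1 library, which allows no comparison.

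A tRNA is shorter than a read of 100 bases, so a read can lie within the bases between the annotated neighbours of a tRNA only where these are far enough apart. For the 18 tRNAs at 0 these bases, strand ignored, numbered 58 to 105 (median 69). They numbered 100 for mt-Tc, 74 for mt-Te and 70 for mt-Tq, and mt-Tp has no annotated gene on its far side. mt-Tn (asparagine), with 105, was nevertheless at 0. How reads that overlap 2 genes were counted is not stated, and its part in the zeros was not tested. Few reads lay on RNAs of other kinds without a poly(A) tail. There were 119 to 189 per library on 70 replication-dependent histone genes and 32 to 78 on 22 small noncoding RNA genes. The part of the poly(A) selection in the tRNA zeros was not tested.

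Expression of the mitochondrial genome depends on nuclear genes, for which a list of 65 in 7 roles was counted. Of these, 52 were tested and 16 passed an adjusted p of 0.05, 4 higher and 12 lower, that is 30.8% against 35.8% of all genes tested. The median log2 fold change was -0.047 over the list and 0.011 over all genes tested, and no gene of the list reached 0.58 in either direction. Values are RPKM per kilobase of the gene from start to end, introns included, and cannot be set against the levels of the intronless mitochondrial genes.

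None of the 7 tested genes of mitochondrial transcription passed. Polrmt and Tfam are given for their roles, outside the rule for named genes and with their values known. Polrmt, the RNA polymerase of the organelle, was at 0.801 ± 0.0530 RPKM in ESC + F/H-BAZ2Ar WT and 0.752 ± 0.0568 RPKM in ESC + F/H-BAZ2Ar ΔTAM (log2 fold change -0.082, limma adjusted p = 0.327), and Tfam, which packages mitochondrial DNA and activates its promoters, at 1.05 ± 0.0560 and 1.01 ± 0.0401 RPKM (-0.052, limma adjusted p = 0.389). Mterf4, with the smallest p in this role, had a log2 fold change of 0.14 (limma adjusted p = 0.186). Of the regulators, only Pprc1, a coactivator of the PGC-1 family, was called, with a log2 fold change of 0.082 (limma adjusted p = 0.0412), a call kept in 6 of 10 other settings and in 1 of the 8 fits that left out a library.

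Among the genes that passed with the smallest p in their role, all others were lower. Atad3a, a membrane ATPase bound to the nucleoid, fell from 1.16 ± 0.0512 to 0.898 ± 0.0270 RPKM (log2 fold change -0.33, limma adjusted p = 0.00047). Hsd17b10, a subunit of the RNase P that cuts the precursors at the tRNAs, fell from 4.17 ± 0.216 to 3.54 ± 0.143 RPKM (-0.23, limma adjusted p = 0.0053). Supv3l1, the helicase of the mitochondrial RNA degradosome, fell by 0.21 (limma adjusted p = 0.0050), Mtg1, a GTPase of ribosome assembly, by 0.37 (0.0068), and Mtif2, a translation initiation factor, by 0.17 (0.0043), each on the log2 scale. The 12 genes that were lower ranged from -0.37 to -0.098. The other 3 that were higher, named after their values were seen, were Twnk, the replicative helicase (0.26), Grsf1, an RNA granule protein (0.26), and Rexo2, an oligoribonuclease (0.24).

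**Figure D5:**
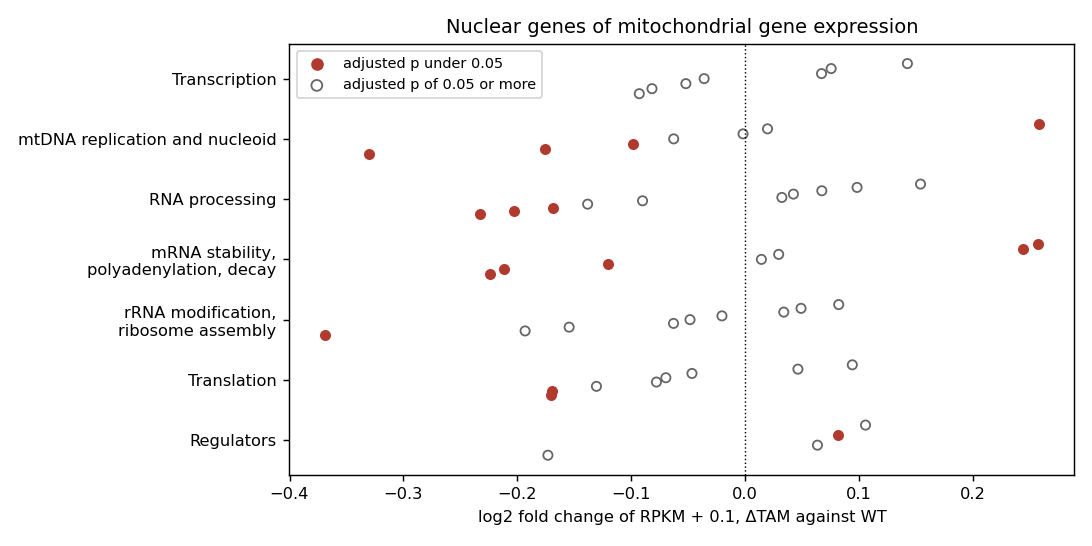
Log2 fold change of RPKM + 0.1 in ΔTAM against WT for the 52 tested nuclear genes of mitochondrial gene expression, by role, with filled points for an adjusted p under 0.05. No point lies beyond -0.37 or 0.26, and the 16 called genes fall in all roles except transcription.

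The nuclear partners of the mitochondrially encoded subunits were counted in the same way. Of the nuclear-encoded subunits of complex I, 0 were higher and 10 lower of 35 tested, with a median log2 fold change of -0.079. For complex IV these numbers were 0 higher and 3 lower of 13 (median -0.098), for complex III 1 and 1 of 9 (median -0.036), and for the ATP synthase 2 and 1 of 15 (median -0.019). Complex II, which has no mitochondrially encoded subunit, had 0 higher and 2 lower of 4 (median -0.12). Of the proteins of the mitochondrial ribosome, 8 were higher and 10 lower of 48 (median -0.069). The shares called in either direction were 28.6% for complex I, 50% for complex II, 22.2% for complex III, 23.1% for complex IV, 20% for the ATP synthase and 37.5% for the ribosomal proteins, beside 35.8% for all genes tested. Under 3 other scalings, tried after seeing the data, complex I had 0 higher and 11 to 12 lower, complex II 0 and 2, and complex IV 0 and 4. Complex III kept 1 and 1. The ATP synthase had 2 higher and 2 to 3 lower, and the ribosomal proteins 6 to 8 higher and 13 to 16 lower. Over all genes the counts were 1790 higher and 1435 lower, against 1667 and 1597 under median-ratio scaling and 1568 and 1722 under quantile normalization. The difference between these lists and all genes was not tested.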

How the data were processed

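RNA was sequenced from 4 libraries of ESC + F/H-BAZ2Ar WT and 4 of ESC + F/H-BAZ2Ar ΔTAM, grouped by their labels. The authors removed ribosomal RNA reads, trimmed and mapped the reads to mm10 with STAR, computed exon coverage per gene and deposited RPKM for each library. Per the submitters' processing notes, FastQC, Trimmomatic 0.36, STAR and DESeq2 were used. The annotation release, strand use and the handling of multi-mapping reads are not given in the sources used here.

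RPKM times the distance from gene start to end gave whole multiples of a step for at least 99.5% of values (tolerance 0.05), from which reads were recovered. Repeated entries of 231 symbols were reduced to 1 each. Members are the entries with MT as chromosome, and these and the gene lists were chosen with earlier results of these data known. Fold changes are on the log2(RPKM + 0.1) scale, which understates changes of low genes, and come from limma 3.58.1 (R 4.3.3), for genes averaging 0.1 RPKM or more, with eBayes with a trend and no covariates, and with Benjamini-Hochberg adjustment over all genes tested. Named genes are all mRNAs and rRNAs, the tRNAs with the most reads, of the nuclear list the gene with the smallest adjusted p in each role, and Baz2a; other names were added with their values known. Windows and copies were computed from GENCODE M21 transcripts in Python 3.11.15. Alternatives were other pseudocounts, filters and scalings, eBayes without a trend, limma voom on recovered reads, a replicate block and leaving out each library.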

Additional observations from a re-analysis of the deposited data

Results flagged for a closer look

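A sample far from the others of its line was looked for in 22 groups of 4 libraries, the members above 0 in all libraries in each line, by the gap of the highest or lowest library relative to the range of the group. Chance marks about 1 in 20 such groups, and 2 were marked. mt-Co1 was lowest in replicate 3 of ESC + F/H-BAZ2Ar WT at 1072.7 RPKM, a gap of 0.835 of the group's range. mt-Nd5 was highest in replicate 1 of ESC + F/H-BAZ2Ar ΔTAM at 175.2 RPKM, a gap of 0.910 of the range. The mt-Co1 call held without the marked library.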

How the results depend on the processing

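Among the mitochondrially encoded genes, 2 were higher and 1 lower in the analysis as reported. These counts became 1 higher and 0 lower without a filter on low genes (mt-Nd1 alone, the cause of the other losses was not tested) and also 1 and 0 under quantile normalization (mt-Nd2 alone), which gives genes of equal rank equal values, and mt-Co1, mt-Nd1 and mt-Cytb had ranks 1, 2 and 3 in every library. They became 4 higher and 3 lower with limma voom on recovered reads, which called 43.9% of the 12657 genes it tested, and 2 to 3 higher and 1 to 2 lower when each library was left out. Over all genes, 1790 were higher and 1435 lower as reported. Among genes averaging 1 RPKM or more, where fewer genes are tested, 590 were higher and 399 lower. Without a filter 1941 were higher and 1817 lower of 25439 tested, and under quantile normalization 1568 and 1722. With voom the counts were 2773 and 2778, and without 1 library 1440 to 1713 and 1137 to 1387. In the nuclear list, 4 were higher and 12 lower, against 2 lower among genes averaging 1 RPKM or more, 7 higher with voom, and 3 to 5 higher and 8 to 11 lower without 1 library. The log2 fold change of mt-Nd4, which did not pass the test, turned from -0.069 to 0.020 under quantile normalization. Deviations of libraries with the same replicate number correlated at 0.024 to 0.062, those with different numbers at -0.061 to 0.028, and replicates 1, 2 and 4, but not 3, correlated best with their own number. The same-number values were below the 0.1 required to treat the numbers as pairing the samples. With a replicate block, 4 of 12 members were called, mt-Nd2 in addition (limma adjusted p = 0.0218). Over all 9000 genes tested, 1557 were higher and 1239 lower with the block. The tRNAs other than mt-Tp have at most 16 reads per library, which limits what can be seen for them, and levels of genes with nuclear copies rest on a counting that is not stated.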
